A study of Mus musculus with 2 samples.

Results

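The 10 genes described here serve 1 task, the making and loading of peptides for MHC class I molecules. They are Tap1, Tap2, Tapbp, Psmb8, Psmb9, Psmb10, Psme1, Psme2, Erap1 and Nlrc5, and they were taken by their Ensembl identifiers from the 31053 genes of the count tables, which hold all 10. The levels were read in EpCAM-sorted lung cells of C57BL/6JRj mice in 4 groups. These were old mice (18 months) given LPS, young mice (3 months) given LPS, old mice given saline (control) and young mice given saline. LPS, lipopolysaccharide, is a component of the bacterial cell wall that sets off inflammation. It was given at 2.5 mg/kg, and lungs were taken after 24 h. Hashtag antibodies marked the groups, whose cells shared 1 droplet lane in equal numbers. There were 2 such lanes and thus 8 libraries, 2 per group. The labels describe the lanes as separate biological experiments but do not say how many mice entered a library or of which sex.

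Peptides shown on class I molecules come mostly from proteins cut by the proteasome. Inflammatory signals, interferon gamma above all, replace the catalytic subunits Psmb5, Psmb6 and Psmb7 of new proteasomes by Psmb8, Psmb9 and Psmb10, which makes the immunoproteasome, and raise the cap subunits Psme1 and Psme2. The peptides are pumped into the endoplasmic reticulum by the Tap1 and Tap2 transporter, trimmed by the peptidase Erap1 and loaded with the help of tapasin, the product of Tapbp. Nlrc5 codes for a transactivator of class I genes, known to act on several genes of this pathway. Alveolar epithelial type II (AE2) cells make surfactant and carry class I molecules like nearly all nucleated cells.

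The tables held 14048 barcodes and 85889264 unique molecular identifiers (UMIs, each 1 counted transcript molecule), with 6228266 to 15435789 per library. No barcode was shared between libraries of a lane, and 2 were shared between lanes. After filters 11224 cells remained, of which 8834 were AE2-like by markers, 737 to 1417 per library. All 10 AE2 markers were detected in them. CPM are UMIs of a gene per 1e6 UMIs of the given class of cells in a library. The summed level of these markers was 101400 to 138700 CPM in the LPS libraries and 274500 to 325800 in the control libraries. Sftpc, a surfactant protein gene, held most of that difference (39400 to 68800 CPM after LPS, 216000 to 259000 in control), and the other 9 summed to 52700 to 73600 CPM after LPS and 58600 to 70200 in control. UMIs were summed over the AE2-like cells of each library, 4177384 to 12782182 UMIs, so that the library and not the cell is the replicate. Library 2 of the old LPS group stood apart. Without it, the genes that differed between old and young mice after LPS grew to 730 higher and 933 lower in old mice, against 181 and 273 with it. AE2-like values below are CPM scaled by TMM, except where stated, and are listed in the order of lanes 1 and 2. Tests are edgeR's quasi-likelihood test with Benjamini-Hochberg adjustment over the 11378 genes that entered the fit (threshold 0.05). Since cells were summed, a level here does not tell how many cells carried the transcript. Shares of cells are given further on.

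Several members lie close together, and stretches of their start regions are shown because the members rose together. Tap2, Psmb8, Tap1 and Psmb9 lie within the MHC region of mouse chromosome 17 (GRCm38), and Tapbp lies on the same chromosome at chr17:33915899-33929292. Psmb9 (chr17:34181987-34187764, minus strand) overlaps the start of Tap1 (chr17:34187553-34197225, plus strand). Psmb8 lies at chr17:34197721-34201454 and Tap2 at chr17:34203527-34216321, both on the plus strand. Psme1 (chr14:55578123-55581529, plus strand) and Psme2 (chr14:55587441-55591113, minus strand) are neighbours on chromosome 14. Psmb10 (chr8:105935735-105938444) and Nlrc5 (chr8:94434356-94527272) lie on chromosome 8 and Erap1 (chr13:74639568-74693201) on chromosome 13. RefSeq windows (GRCm38.p6) from 250 bases before to 50 bases after the start were at hand for 8 of the 10 members. The windows of Tap1 and Psmb9 share 275 bases, since the genes run away from each other. Capitals in the sequences mark the matched letters. The first pair is the same stretch read on either strand, with the core of a cyclic AMP response element (TGACG, reverse CGTCA), chr17:34187458-34187486.

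Tap1, plus strand: cccagagacaggTGACGacagagggtcct
Psmb9, minus strand: aggaccctctgtCGTCAcctgtctctggg

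The same letters stood in the Psme2 window (chr14:55591244-55591272). The interferon-gamma activated site letters (TTCNNNGAA) were matched in the Psmb8 window (chr17:34198088-34198116), 97 bases before the RefSeq start of that window. That start lies inside the Psmb8 span given above, so the match stands within the gene as GENCODE draws it, in an untranslated part. The stretches shown for Psmb9, Psme1 and Erap1 likewise lie in an untranslated part of those genes in GENCODE. The interferon regulatory factor letters (GAAA, any 2 bases, GAAA, or its reverse) were matched in the Psme1 window (chr14:55578494-55578522) and the Erap1 window (chr13:74639840-74639868).

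Psme2, minus strand: tcctcagtctagCGTCAtggaaccccacc
Psmb8, plus strand: tcctccgctgTTCCCAGAAgatgcccccc
Psme1, plus strand: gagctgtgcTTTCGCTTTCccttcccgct
Erap1, plus strand: caccttcacTTTCACTTTCggtcccgggc

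Both strands were searched. Of 32851 such windows over all genes, 20.8% held the cyclic AMP element core, 8.3% the activated site letters and 3.44% the interferon regulatory factor letters. The NF-kappaB letters searched (GGGA, any base, TTTCC, or its reverse, in 0.411% of all windows) were in no member's window. None of these 4 motifs was matched in the windows of Tapbp and Psmb10. The cyclic AMP element core was also matched outside the members, 1 time in the window of Psmb5 and 2 times in that of Psmb6. CCAAT letters, in 37.4% of all windows, were matched in those of Tap1, Tapbp and Psmb9. A match says that the letters are present, not that a factor binds there.

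LPS raised the whole set in AE2-like cells at both ages. The AE2-like cells of LPS and control libraries fell for the most part into different clusters, whose sizes stand further on. All 10 members were higher after LPS in old mice, where 25.2% of all genes tested were higher. All 10 were higher in young mice as well, where 21.9% of all genes were. The median log2 fold change of the members was 2.25 in old and 3.14 in young mice, against -0.01 over all genes at either age. Each of the 10 had all 4 LPS libraries above all 4 control libraries, which held for 25.3% of the genes tested.

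Tap1, the first transporter chain, had 102.2 and 122.0 CPM in old LPS, 323.1 and 261.5 in young LPS, 15.44 and 16.92 in old control and 12.91 and 15.91 in young control. The groups of LPS and control were far apart, and both old LPS libraries lay below both young LPS libraries. The log2 fold change of LPS over control was 2.79 ± 0.14 (SE) in old mice (adjusted p = 6.0e-10) and 4.31 ± 0.15 in young mice (adjusted p = 6.5e-12). Its partner Tap2 had 134.4 and 119.3 CPM in old LPS, 224.9 and 195.1 in young LPS, 29.16 and 25.26 in old control and 23.13 and 22.06 in young control. Its log2 fold changes were 2.22 ± 0.12 in old and 3.22 ± 0.12 in young mice. The same order of groups held for Tapbp, the loading bridge between transporter and class I chain, at a smaller distance. Tapbp had 263.1 and 265.2 CPM in old LPS, 429.7 and 377.8 in young LPS, 88.57 and 98.5 in old control and 84.02 and 94.38 in young control. The log2 fold changes of Tapbp were 1.50 ± 0.10 in old and 2.17 ± 0.11 in young mice.

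Among the catalytic immunoproteasome subunits, Psmb8 had 452.3 and 419.6 CPM in old LPS, 866.6 and 691.3 in young LPS, 80.69 and 76.4 in old control and 67.21 and 63.23 in young control. Its log2 fold change was 2.47 ± 0.11 in old mice (adjusted p = 8.7e-11) and 3.58 ± 0.12 in young mice (adjusted p = 2.1e-12). Psmb9 had 147.5 and 175.0 CPM in old LPS, 311.3 and 243.5 in young LPS, 34.67 and 32.33 in old control and 23.87 and 27.67 in young control. It rose by 2.27 ± 0.13 on the log2 scale in old and by 3.41 ± 0.14 in young mice. Psmb10 had 201.7 and 173.8 CPM in old LPS, 303.4 and 231.7 in young LPS, 29.47 and 33.21 in old control and 31.66 and 32.62 in young control. For Psmb10 the fold changes of the ages were closer, 2.58 ± 0.14 in old and 3.05 ± 0.14 in young mice.

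The cap subunits Psme1 and Psme2 form a ring that opens the proteasome. Psme1 had 564.5 and 552.0 CPM in old LPS, 780.7 and 694.0 in young LPS, 204.4 and 215.8 in old control and 217.2 and 233.9 in young control. Psme2 had 289.8 and 271.3 CPM in old LPS, 387.7 and 355.6 in young LPS, 42.24 and 57.2 in old control and 52.6 and 55.74 in young control. The log2 fold change of Psme1 was 1.41 ± 0.095 in old and 1.71 ± 0.096 in young mice. That of Psme2 was larger at either age, 2.49 ± 0.12 in old and 2.77 ± 0.13 in young mice. Psme2 has a near-identical copy, Psme2b, in the tables, so its counts may be split between them and are uncertain to that extent.

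Erap1, the trimming peptidase, moved least. It had 20.84 and 16.97 CPM in old LPS, 23.11 and 25.27 in young LPS, 14.81 and 14.4 in old control and 14.12 and 13.64 in young control. The log2 fold change was 0.37 ± 0.14 in old mice (adjusted p = 0.0443) and 0.81 ± 0.15 in young mice (adjusted p = 0.000548). The call in old mice was lost with DESeq2 (adjusted p = 0.208) and when any 1 library other than old LPS 2 was left out.

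Nlrc5 was the member with the fewest UMIs. It had 76 and 100 UMIs in old LPS, 123 and 141 in young LPS, 13 and 14 in old control, and 0 and 2 in young control. The 2 LPS libraries of each age lay above their controls, and the young control libraries were at or under the 3 counts that a count of 0 allows. Summed over libraries and set against depth, old LPS (176 UMIs) exceeded old control (27 UMIs) 3.79-fold, with a counting interval of 2.52 to 5.92 (95%). In young mice the ratio of 264 UMIs after LPS to 2 in control was 91.3-fold (25.04 to 758). The intervals cover counting error only. The fitted log2 fold change in old mice was 1.96 ± 0.27, and the fitted 6.40 in young mice depends on the prior count.

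**Figure D1:**
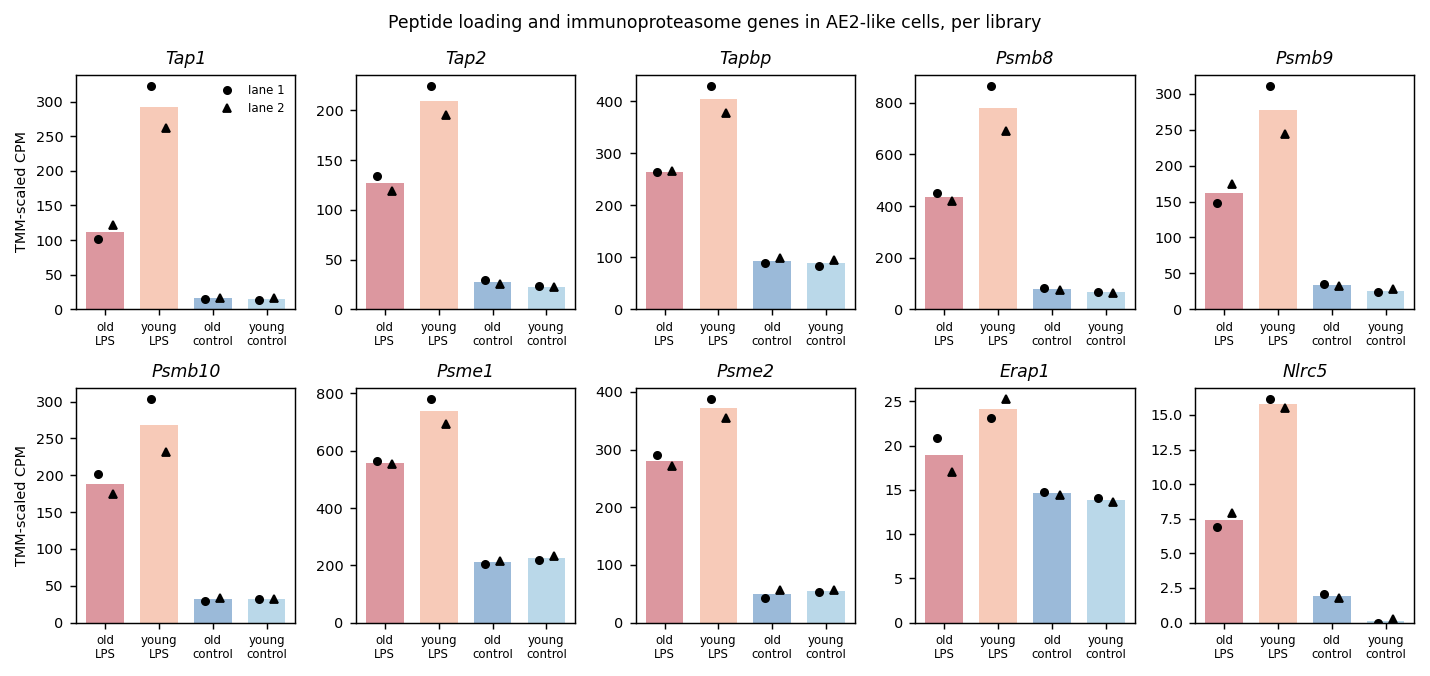
Level of each member in AE2-like cells (y axis, TMM-scaled CPM, a scale of its own per member) in each of the 8 libraries, by group from left to right (old LPS, young LPS, old control, young control). Bars are group means of 2 libraries and points are the libraries of lanes 1 (circles) and 2 (triangles). Each member has its 4 LPS libraries above its 4 control libraries, and both old LPS libraries below both young LPS libraries.

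After LPS the members were lower in old than in young mice. Of the 10, 8 were lower by the test, where 2.4% of all genes tested were lower. The median log2 difference of the members was -0.67, against 0.00 over all genes. Both old LPS libraries lay below both young LPS libraries for all 10 members, which held for 22.1% of all genes. It follows that the old library was below the young one within each lane for all 10 members (20 of 20 pairs), which adds nothing to that count. Tap1 differed most, by -1.38 ± 0.12 on the log2 scale (adjusted p = 8.0e-06), followed by Nlrc5 with -1.09 ± 0.18, Psmb8 with -0.84 ± 0.11 and Psmb9 with -0.78 ± 0.12. Tap2 fell by 0.73 and Tapbp by 0.61. Psmb10 (-0.51 ± 0.12, adjusted p = 0.0264) and Psme1 (-0.40 ± 0.093, adjusted p = 0.0220) were nearer the threshold. With DESeq2 neither passed (adjusted p = 0.0664 for Psmb10 and 0.0510 for Psme1). Psmb10 also lost its call without any 1 library other than young LPS 2 and old LPS 1, and Psme1 without any 1 library of the young mice (adjusted p up to 0.322 for Psmb10 and 0.260 for Psme1). Psme2 (-0.41 ± 0.11, adjusted p = 0.0551) and Erap1 (-0.36 ± 0.13, adjusted p = 0.159) did not pass, though Psme2 did under 6 of the alternatives tried and Erap1 without old LPS 1. Without old LPS library 2, the number called stayed at 8, with Psme2 in the place of Psmb10, and Tap1 differed by -1.51, while 8.0% of all genes were then lower.

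In control mice 9 of the 10 members were not called between the ages, which does not show that their levels were equal. Only Nlrc5 was called, higher in old mice, where 0.246% of all genes were higher. This call rests on 27 UMIs in the old control libraries against 2 in the young ones (log2 difference 3.35 ± 0.66, adjusted p = 0.0298), and it was lost with DESeq2 (adjusted p = 0.212), at a limit of 10% mitochondrial UMIs (0.0827) and without any 1 control library (0.130 to 0.300). The other 9 log2 differences ran from -0.12 for Psme2 to 0.36 for Psmb9, with a member median of 0.11 against 0.00 over all genes. Of these 9, the approximate 95% intervals of Psmb9 (0.063 to 0.66), Psmb8 (0.039 to 0.502) and Tap2 (0.005 to 0.532) lay above 0, without adjustment, and the others included 0. Over all 10 members the old control library was above the young one of its lane in 16 of 20 pairs. The share of such pairs over all genes was not counted.

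The test of the difference itself, the interaction of age and LPS, called 6 members with a smaller response in old mice, where 0.316% of all genes were called in that direction. The log2 differences of the 2 responses were -1.52 ± 0.21 for Tap1 (adjusted p = 0.00283), -1.14 ± 0.19 for Psmb9 (0.0130), -1.11 ± 0.16 for Psmb8 (0.00283), -0.995 ± 0.17 for Tap2 (0.00995) and -0.68 ± 0.14 for Tapbp (0.0430). Nlrc5 had -4.44 ± 0.66 (adjusted p = 0.00328), a value that rests on the 0 and 2 UMIs of the young control libraries. Psmb10 (-0.47 ± 0.19), Erap1 (-0.44 ± 0.21), Psme1 (-0.30 ± 0.13) and Psme2 (-0.28 ± 0.17) were not called, with adjusted p of 0.404 to 0.620. The count fell to 3 without young control 1 or old control 1, to 4 without old control 2 and to 1, Tap1, without young control 2, while it stayed at 6 without old LPS 2, with -1.65 for Tap1. Without that library 3.98% of all genes were called in the same direction. Tapbp lost its call without any 1 library outside the old LPS group (adjusted p = 0.0509 to 0.320) and Psmb9 without any 1 control library (0.0629 to 0.143).

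**Figure D2:**
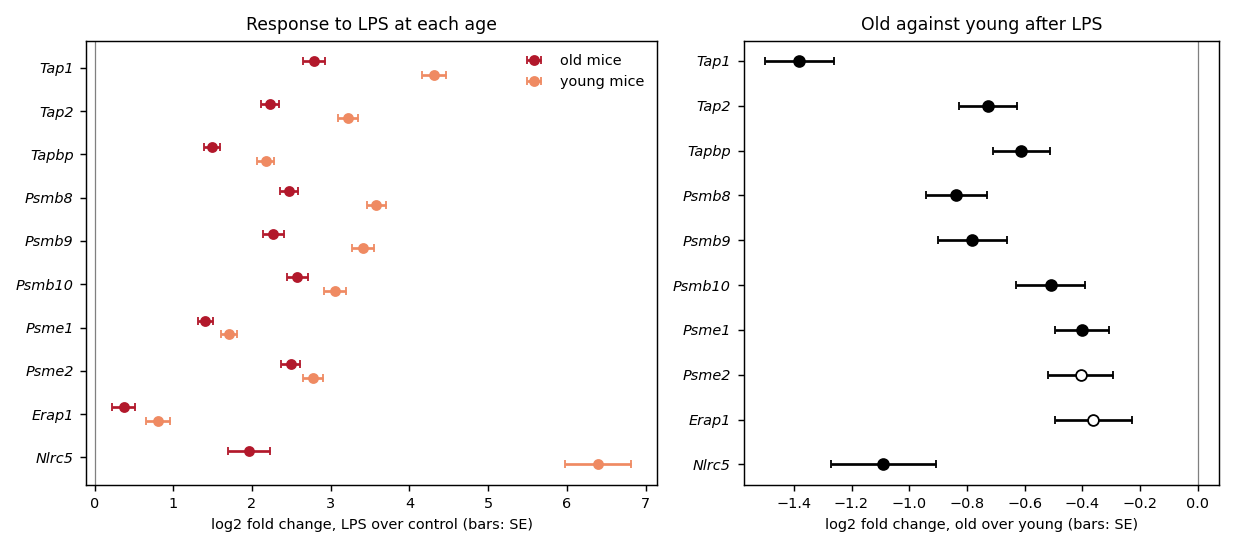
Left, log2 fold change of LPS over control in AE2-like cells (x axis) for each member (y axis) in old and young mice, with bars of 1 SE from edgeR's quasi-likelihood fit on 2 libraries per group. Right, the same for old over young mice after LPS, with open points where the adjusted p missed 0.05 (Psme2 and Erap1). On the left all points lie above 0 and the young point lies to the right of the old one, and on the right all points lie below 0. The young value of Nlrc5 depends on the prior count, since its young control libraries held 0 and 2 UMIs.

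The counts of pathway genes below are to be read against all genes tested. After LPS, 25.2% of these were higher and 23.4% lower in old mice, and 21.9% were higher and 18.4% lower in young mice. Between old and young mice after LPS, 1.59% were higher and 2.4% lower in old mice. The subunits that Psmb8, Psmb9 and Psmb10 replace also rose, by less. Psmb5 rose by 1.25 ± 0.13 in old and 1.07 ± 0.14 in young mice on the log2 scale, which also holds for the differences given below. Psmb6 rose by 0.82 ± 0.11 in old and 0.75 ± 0.11 in young mice, and Psmb7 by 0.75 ± 0.10 in old and 0.86 ± 0.11 in young mice. Between old and young mice after LPS, 0 of the 3 were called. All 11 other subunits of the 20S core tested rose at both ages, and 0 of 11 were called between old and young mice after LPS. Among them, Psmb4 rose by 1.06 ± 0.11 in old and 1.05 ± 0.11 in young mice, and Psma7 by 1.15 ± 0.11 in old and 1.20 ± 0.11 in young mice. Psmb1, of highest level among them, rose by 0.60 ± 0.091 in old and 0.68 ± 0.092 in young mice. Of 8 activators, inhibitors and assembly chaperones, 5 rose at either age, among them the assembly factor Pomp by 0.79 ± 0.11 in old and 0.88 ± 0.11 in young mice, and 0 were called between ages after LPS.

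Log2 ratios within a library set each immunoproteasome subunit against the one it replaces and need no scaling between libraries. Psmb8 over Psmb5 was 0.386 and 0.759 in old LPS, 1.65 and 1.38 in young LPS, -0.615 and -0.728 in old control, and -0.837 and -1.12 in young control. Psmb9 over Psmb6 was -0.793 and -0.222 in old LPS, 0.428 and 0.0755 in young LPS, -1.85 and -2.05 in old control, and -2.57 and -2.26 in young control. Psmb10 over Psmb7 was 0.767 and 0.743 in old LPS, 1.3 and 0.997 in young LPS, -1.04 and -1.1 in old control, and -1.05 and -1.03 in young control. For each ratio the 4 LPS libraries lay above the 4 control libraries. The mean differences of LPS and control were 1.87, 2.06 and 2.01, each with p = 0.0286 in a two-sided exact permutation test with 70 arrangements, adjusted p = 0.0286 over the 3 ratios, the smallest p that 4 against 4 allows. Paired by lane within age, the same differences had an exact permutation p of 0.125, the smallest that 4 pairs allow. The differences were 1.24, 1.44 and 1.83 in old mice and 2.49, 2.67 and 2.19 in young mice. Whether the ratios responded differently by age was not tested.

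**Figure D3:**
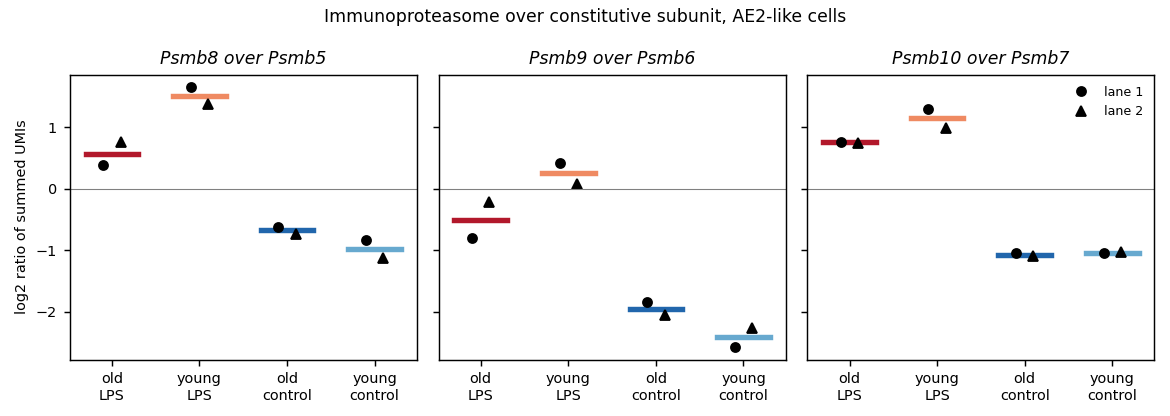
Log2 ratio of each immunoproteasome subunit to the constitutive subunit it replaces, within AE2-like cells of each library (y axis), by group (x axis, old LPS, young LPS, old control, young control), with 1 point per library and a line at the group mean. All LPS points lie above all control points, and for each ratio the young LPS points lie above the old LPS points.

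Among the partners in the reticulum, 5 of 7 chaperones rose at either age and 0 fell. Calr, calreticulin, which holds the class I chain before loading, rose by 1.92 ± 0.11 in old and 1.48 ± 0.11 in young mice. Pdia3, its partner in the loading complex, rose by 1.33 ± 0.10 in old and 1.23 ± 0.10 in young mice. Tapbpl, the tapasin-like editor, rose by 2.30 ± 0.12 in old and 2.63 ± 0.13 in young mice. Canx, calnexin, had -0.01 ± 0.089 in old and -0.03 ± 0.09 in young mice and was not called. Between old and young mice after LPS, 1 of the 7 was called, the general chaperone Hspa5, which was higher in old mice by 0.38 ± 0.099.

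Of the 9 peptidases listed 8 were tested. In old mice 3 rose and 2 fell, and in young mice 1 rose and 2 fell, near the shares over all genes. Lap3, a cytosolic aminopeptidase, had 115.0 and 116.8 CPM in old LPS, 212.0 and 185.2 in young LPS, 57.21 and 61.12 in old control and 74.76 and 64.03 in young control. It was lower in old than in young mice after LPS by -0.78 ± 0.10 (adjusted p = 0.00026). Thop1, a cytosolic peptidase known to destroy class I peptides, was higher in old mice after LPS by 0.89 ± 0.23 (adjusted p = 0.0388), at 12.01 and 7.892 CPM in old LPS and 5.645 and 5.053 CPM in young LPS.

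The class I chains, which receive the peptides, rose as a whole, 9 of 9 at both ages. B2m, the light chain shared by all class I molecules, had 854.0 and 977.2 CPM in old LPS, 1125 and 859.9 in young LPS, 367.7 and 357.5 in old control and 179.7 and 192.9 in young control. In control mice, 4 of the 9 were higher in old than in young mice, where 0.246% of all genes were. These were B2m by 0.96 ± 0.12, H2-K1 by 0.60 ± 0.11, H2-Q6 by 1.61 ± 0.24 and H2-Q7 by 2.05 ± 0.24. After LPS, 3 of 9 were lower in old mice, H2-T23 by -0.79 ± 0.14, H2-Q4 by -0.54 ± 0.13 and H2-T22 by -0.43 ± 0.11. The interaction called 3 of 9, B2m with -1.08 ± 0.17, H2-Q6 with -1.81 ± 0.27 and H2-T22 with -0.84 ± 0.18. The H2-Q and H2-T genes resemble one another closely, so their separate counts are uncertain.

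Of 17 transcription factors known to act on this pathway, 8 rose and 1 fell in old mice, and 10 rose and 2 fell in young mice. Irf1, which is known to drive Tap1, Psmb9 and Nlrc5 after interferon, had 66.06 and 78.53 CPM in old LPS, 187.7 and 174.0 in young LPS, 20.49 and 23.49 in old control and 26.06 and 25.0 in young control. Its 4 LPS libraries lay above its 4 control libraries, and both old LPS libraries below both young ones. Between old and young mice after LPS, 5 of 17 were lower and 0 higher, where 2.4% of all genes were lower and 1.59% higher. Among them were Irf1 with -1.32 ± 0.10, Ciita, the class II transactivator, with -1.17 ± 0.17, and Stat2 with -0.93 ± 0.11. Irf8, also among the 10 leading genes of 2 dendritic-like clusters, was called on 1 and 10 UMIs in old LPS against 17 and 21 in young LPS, near the limit that a count of 0 allows. The interaction called Irf1 alone of the 17 (-1.12 ± 0.17, adjusted p = 0.00371).

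Of 6 interferon receptor genes, 4 rose at both ages and 0 were called between old and young mice after LPS. Ifngr2, the second chain of the interferon gamma receptor, rose by 2.19 ± 0.13 in old and 1.96 ± 0.14 in young mice. The ligands were scarcely seen. None of the 6 ligand genes had enough counts to be tested, and Ifng had 1 UMI over all LPS AE2-like cells, 1 in LPS dendritic-like cells and 2 in LPS B cell-like cells. T cells and NK cells, known sources of interferon gamma, formed no named class in this EpCAM sort. The B cell-like cluster of 43 cells had Gzma, a gene of the NK cell marker list, among its 10 leading genes. Which of its cells held the Ifng UMIs was not tested.

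Single AE2-like cells carried more of the members after LPS. Each cell was thinned to 3000 UMIs, which left out 70 of 2692 old LPS, 40 of 2121 young LPS, 65 of 2144 old control and 91 of 1877 young control cells. The mean number of the 10 members with a UMI per cell was 3.84 and 3.43 in old LPS, 4.84 and 4.31 in young LPS, 1.42 and 1.43 in old control, and 1.27 and 1.39 in young control. Cells with at least 5 members made up 32.0% and 29.9% in old LPS and 56.3% and 46.5% in young LPS, against 0.786% and 0.471% in old control and 0.733% and 0.815% in young control. Cells with none made up 1.04% and 6.0% in old LPS, 1.71% and 3.31% in young LPS, 21.1% and 19.0% in old control, and 24.5% and 18.9% in young control. Thus most cells held at least 1 member at this depth, in LPS and control libraries alike. After LPS the mean number per cell was higher in both young libraries than in both old ones. Neither these shares nor the means were tested.

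A UMI of Tap1 was found in 21.5% and 23.6% of old LPS cells and in 48.1% and 40.9% of young LPS cells, against 3.73% and 4.05% in old control and 4.11% and 4.35% in young control (47.0%, 44.3%, 67.6%, 58.8%, 8.43%, 10.7%, 6.92% and 9.39% before thinning, in the same order). Psmb8 was found in 67.4% and 54.0% of old LPS and 75.2% and 65.0% of young LPS cells, against 21.9% and 19.3% in old control and 17.6% and 18.0% in young control. RNA free in the suspension can add to such shares. No class of cells in the sort is known to lack class I genes, so no background share could be measured.

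**Figure D4:**
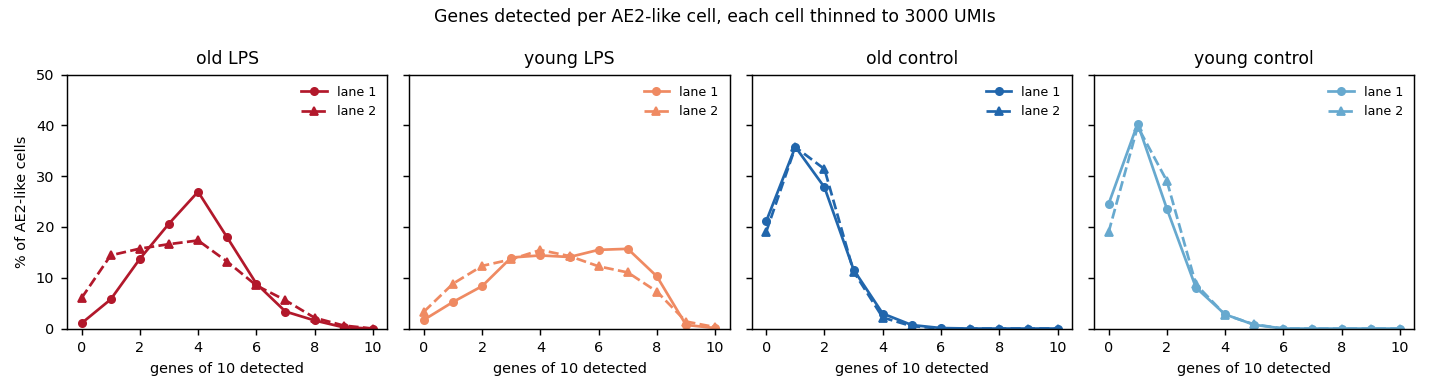
Share of AE2-like cells (y axis, percent) by the number of the 10 members with a UMI in the cell (x axis), each cell thinned to 3000 UMIs, with 1 panel per group from left to right and 1 line per library. The control lines peak at 1 member, and the young LPS lines reach further right than the old LPS lines.

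All cells were also clustered without the members and the lists above, and the clusters then named AE2-like, with 8833 cells, are described here. Other interferon-induced genes stayed in the clustering, so the order of clusters is a description. Values of CPM within a cluster are per 1e6 UMIs of that cluster in a library and are not TMM-scaled. The treatments hardly shared clusters. The 2 largest control clusters held 101 LPS and 3569 control cells, and the clusters led by Saa3, Iigp1, Csf3 and Cxcl10 held 3320 LPS and 8 control cells, of 4812 LPS and 4021 control cells in these AE2-like clusters. In the cluster led by Cxcl10, Gbp2 and Gbp5, Tap1 had 675 and 539 CPM in old LPS and 721 and 714 in young LPS, and the 10 members summed to 5674 to 6985 CPM over LPS libraries. In the cluster led by Iigp1, Igtp and Isg15, Tap1 had 226 and 270 CPM in old LPS and 384 and 390 in young LPS. In the cluster led by the acute phase genes Saa3, Orm1 and Slpi, Tap1 had 71.555 and 69.985 CPM in old LPS and 92.8 and 104 in young LPS. For Tap1 both old LPS libraries were thus below both young ones in each of these 3 clusters, though not in every cluster. Over the 10 members this held for 4 in the cluster led by Cxcl10, where old LPS 1 had 10 cells, for 9 in that led by Iigp1 and for 5 in that led by Saa3. It held for 3 members in a cluster led by Itih4 and for 0 in that led by Pmvk, described below. The share of all genes for which it held was not counted within clusters, so these counts have no background. In the cluster led by Cxcl10, Tap2 had 653.99 and 394.18 CPM in old LPS and 471.67 and 521.9 in young LPS. The clusters also differed in size. That led by Iigp1 held 10.8% and 12.1% of AE2-like cells in old LPS and 44.3% and 38.0% in young LPS, and that led by Cxcl10 held 0.784% and 3.74% in old LPS and 15.1% and 8.45% in young LPS. That led by Saa3 held 48.2% and 28.4% in old LPS and 11.4% and 11.9% in young LPS. A cluster led by Csf3, Cxcl2 and Ccl20 held 355 and 199 cells in old LPS and under 10 cells in each young LPS library. A cluster of 580 cells led by Pmvk, Fmo2 and Cyp2b10 had a member sum of 485.4 to 673 CPM in LPS and control libraries alike. It held 18.3% of the AE2-like cells of old LPS 2 but 2.82% of those of old LPS 1, and 3.38% and 8.18% in young LPS.

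Markers of other cells in the AE2-like sums were read beside these values. The club/secretory list summed to 1702 to 3654 CPM after LPS and 4402 to 7366 in control, and it was 6618 to 7366 CPM in old control and 4402 to 4801 in young control. The ciliated list summed to 26.21 to 37.41 CPM after LPS and 74.03 to 87.56 in control. The dendritic list summed to 3.735 to 7.024 CPM in LPS libraries and 5.214 to 6.567 in control libraries, the neutrophil list to 1.76 to 4.10 after LPS and 1.89 to 3.74 in control, and the monocyte list to 9.55 to 19.4 after LPS and 21.1 to 45.2 in control. The alveolar macrophage list summed to 62.7 to 73.3 CPM after LPS and 10.5 to 22.9 in control, of which Plet1 alone gave 55.6 to 71.4 after LPS and 6.58 to 14.8 in control. The endothelial list (17.8 to 28.8 CPM after LPS, 5.04 to 7.31 in control) was higher after LPS through Pecam1 alone, and the platelet list (134 to 208 after LPS, 15.3 to 23.5 in control) through Pf4 alone. The part of these in the members' levels was not tested.

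LPS also raised the members outside AE2-like cells, in fits that take both ages together with age as a term. In ciliated-like cells (52 to 265 per library), 8 of 8 members tested were higher after LPS, where 9.23% of all 6936 genes tested were. Erap1 and Nlrc5 did not reach the filter on low counts. Tap1 had 49.3 and 62.5 CPM (not TMM-scaled, as for all classes below) in old LPS, 310 and 142 in young LPS, 13.7 and 11.1 in old control and 19.2 and 10.0 in young control. Psmb9 had 52.9 and 54.2 CPM in old LPS, 335 and 233 in young LPS, 23.7 and 3.71 in old control and 5.24 and 16.7 in young control. In both genes the young LPS libraries stood above the old ones, as they did for the other members, with few UMIs for Erap1 and Nlrc5. This was not tested here, and the share of all genes for which it held in ciliated-like cells was not counted. The log2 fold changes over both ages were 3.38 ± 0.68 for Psmb9, 3.21 ± 0.45 for Tap1, 2.59 ± 0.54 for Psmb8 and 1.97 ± 0.21 for Psmb10, and 1.19 to 1.47 for the other 4. With the lane as a block, Psmb8 missed the threshold (adjusted p = 0.0569), which left 7. Psmb8 and Psmb9 each also missed it without any 1 of 6 of the 8 libraries (adjusted p up to 0.0967 for Psmb8 and 0.0823 for Psmb9). Different clusters held the ciliated-like cells of the treatments, 1 with 451 LPS and 3 control cells and 1 with 64 LPS and 381 control cells.

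In club/secretory-like cells, 7 of 7 members tested were higher after LPS, where 6.95% of 2102 genes were. The fit held 6 libraries of at least 10 cells, and Tap1, Erap1 and Nlrc5 did not reach the filter. Psmb8 had 170 and 154 CPM in old LPS and 442 in young LPS, against 28.3 and 46.1 in old control and 30.6 in young control (log2 fold change 2.83 ± 0.33). The count was 4 without young LPS 1 or young control 1, each of which is the only library of its group in this fit.

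Dendritic-like cells, which take up and present antigen, had high control levels and smaller rises. In them 9 of 9 members tested were higher after LPS, where 19.5% of 3794 genes were, and Erap1 did not reach the filter. Psmb8 had 2190 and 1730 CPM in old LPS, 2010 and 1990 in young LPS, 1100 and 1010 in old control and 1040 and 1030 in young control. The control level of Psmb8 in these cells was thus above its LPS level in AE2-like cells. Its log2 fold change was 0.88 ± 0.11. That of Psme2 was the largest, 1.88 ± 0.14, with 739 and 618 CPM in old LPS, 788 and 828 in young LPS, 193 and 197 in old control and 174 and 213 in young control. Tap1 had 350 and 239 CPM in old LPS, 344 and 359 in young LPS, 157 and 189 in old control and 182 and 185 in young control, a log2 fold change of 0.83 ± 0.15. The LPS ranges of old and young libraries overlapped for Psmb8, Tap1, Tap2, Tapbp and Psmb10. For Psme1, Psme2, Psmb9, Erap1 and Nlrc5 both old LPS libraries lay below both young ones. The ages were not tested against each other in these cells, and the share over all genes was not counted. Tap2 and Nlrc5 missed the threshold without young control 1 or young control 2, and Tap2 also without young LPS 2 (adjusted p = 0.0545 to 0.107). Clusters differed by treatment here too, with 51, 147 and 9 LPS cells and 222, 39 and 61 control cells in the 3 clusters. In that order, these were led by Irf8, Cst3 and Cd52, by Ccl5, Ccr7 and Ccl22, and by Top2a, Pclaf and Ube2c. The fold changes above are thus taken over a mix of clusters that differed between treatments, and the part of that mix in them was not tested.

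In alveolar macrophage-like cells, 6 of 9 members tested were higher after LPS, where 5.5% of 3815 genes were. The fit held 7 libraries, since young LPS 1 had 5 cells, and Nlrc5 did not reach the filter. Psme2 led with 1.84 ± 0.24, followed by Tap1 with 1.78 ± 0.33 and Tapbp with 1.33 ± 0.21. Tap1 had 118 and 92.8 CPM in old LPS and 189 in young LPS, against 52.0 and 45.1 in old control and 28.5 and 26.7 in young control. Psmb9 (0.87 ± 0.28, adjusted p = 0.0606), Psme1 (0.69 ± 0.21, adjusted p = 0.0543) and Erap1 (0.72 ± 0.39, adjusted p = 0.312) did not pass. With the lane as a block, Psmb10 missed the threshold (adjusted p = 0.0536), which left 5, and without young LPS 2, the only young LPS library, 3 were called.

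**Figure D5:**
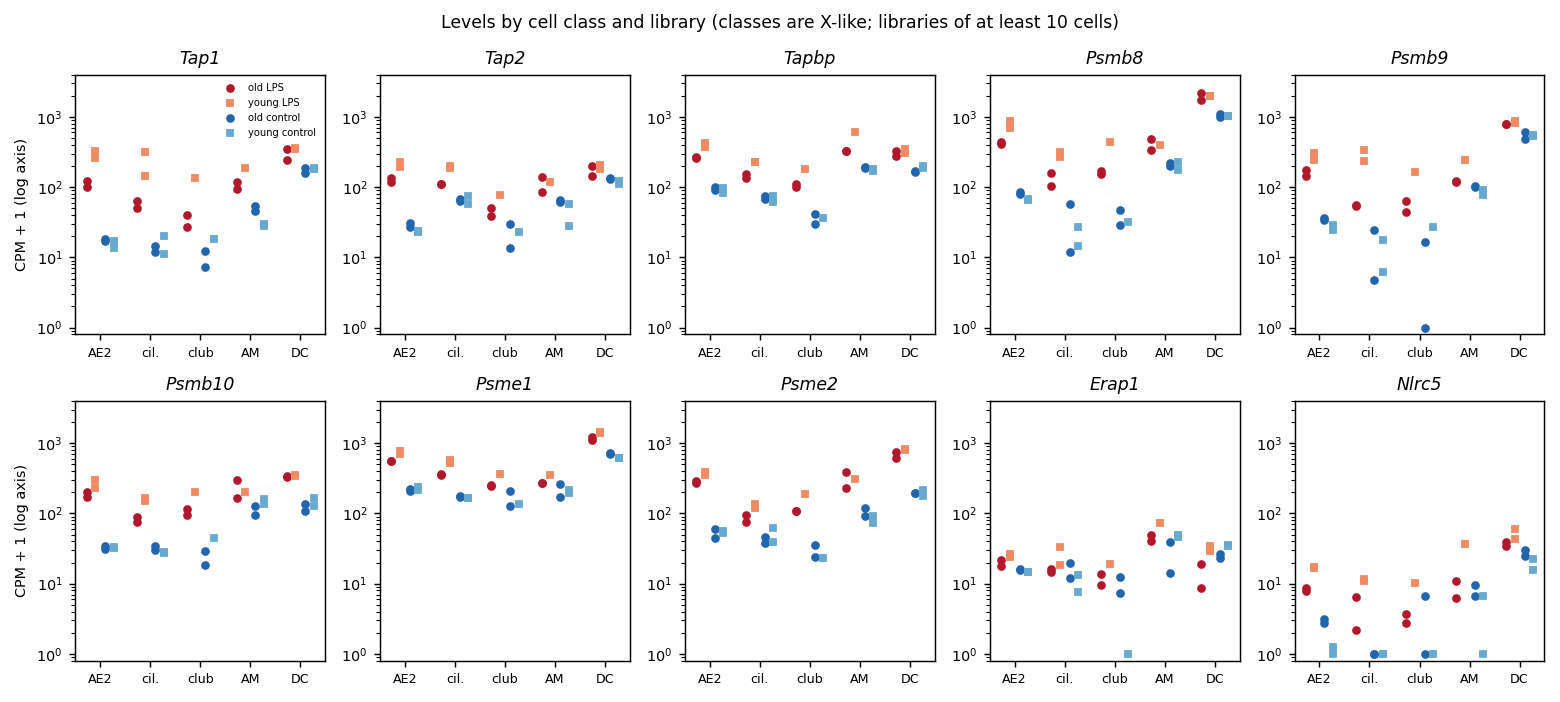
Level of each member (y axis, CPM + 1, log axis, not TMM-scaled) by cell class (x axis) and library, with 1 point per library of at least 10 cells, for AE2-like, ciliated-like (cil.), club/secretory-like (club), alveolar macrophage-like (AM) and dendritic-like (DC) cells. Circles are old and squares young mice, and LPS libraries stand left of control libraries in red shades. Psmb8 lies highest in DC, at 1730 to 2190 CPM after LPS and 1010 to 1100 in control.

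The genes whose pattern was most like that of the members were sought over 44 profiles of class and library, among 5962 genes of at least 20 CPM on average. The measure was Pearson's r with the mean standardised profile of the 9 members above that level, which leaves out Nlrc5. Outside the members, H2-T23 (r = 0.915), Bst2 (0.887), Rbm3 (0.884), H2-D1 (0.882) and B2m (0.871) were among the nearest, followed by H2afz, H2-T22, Ssr4 and Samhd1 (0.863 to 0.846). Of the members themselves, Tap1 was nearest to their mean (0.966) and Erap1 farthest (0.528). The profiles share libraries and treatment, so r is a description.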

How the data were processed

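For each group and lane the authors deposited 1 table of raw, unscaled UMI counts of genes in barcodes, per the labels from a 10x 3' assay. The submitters' processing notes name bcl2fastq, STAR, Cell Ranger 3.1.0, R 3.6.3, build mm10 and Seurat in versions 3.1 and 3.1.5, without their roles. How barcodes were assigned to hashtags, and whether counting used strand, is not given in the sources used here. Where Tap1 and Psmb9 overlap, reads could not be parted without strand.

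Of 14048 barcodes, 2803 had under 500 genes or over 20% mitochondrial UMIs and were removed. Scrublet, set to expect 2% doublets, marked 21 of 11245 cells. Since this may be too few, the 3% of highest scores were also left out as an alternative. Cells were clustered with scanpy 1.11.5 and leidenalg 0.10.2 (Python 3.11.15), and the 20 clusters were named by marker lists. UMIs were summed per library and class (at least 10 cells), filtered with filterByExpr, scaled with TMM (0.981 to 1.03 in AE2-like cells) and tested with edgeR 4.0.16 in R 4.3.3, with group as the only factor in AE2-like cells (biological coefficient of variation 0.0886, with 4 residual degrees of freedom) and with age and treatment elsewhere. SEs derive from the F statistic and are approximate. P-values measure the spread between libraries, which came from 2 experiments. The lane pairs the libraries, since the labels make it a shared experiment. Deviations of same-lane libraries from their group means correlated at -0.0324 to 0.164. Alternatives were DESeq2 1.42.0, RLE factors, no filter, the lane as a replicate block, 10% mitochondrial UMIs, clusters made without the members, and each library left out. All 10 members are named in each AE2-like comparison. Of each list, genes were named from among the up to 4 called ones of highest level, not always all of them or the highest. Further ones were named after their values were seen. The members and lists were chosen with earlier results of these data known. Sequences are RefSeq's (GRCm38.p6). Results of 1 gene of the transcription factor list are not reported here.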

Additional observations from a re-analysis of the deposited data

Results flagged for a closer look

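The response of AE2-like cells to LPS differed between old and young mice for 6 members by the interaction test of edgeR. The log2 difference, old response minus young response, was -4.44 for Nlrc5, -1.52 for Tap1, -1.14 for Psmb9, -1.11 for Psmb8, -0.995 for Tap2 and -0.68 for Tapbp. Over all genes tested, 0.316% were called with such a negative difference. With 1 control library left out, 1 to 4 members were called. In both lanes the response of each of the 6 was smaller in old mice, as was that of each member not called. These lane values come from the same libraries as the test, and the share over all genes was not counted. Within lanes 1 and 2, Tap1 rose by 2.69 and 2.81 on the log2 scale in old mice and by 4.59 and 4.00 in young mice. Tapbp, the smallest of the 6, rose by 1.57 and 1.42 in old mice and by 2.35 and 2.00 in young mice. The value of Nlrc5 rests on 0 and 2 UMIs in the young control libraries.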

How the results depend on the processing

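Of 1133 values of single genes under alternatives, 1034 kept their direction and their side of the threshold, 90 no longer passed it, 9 newly passed it and 0 turned direction. The counts of members called after LPS stayed at 9 to 10 in old and 10 in young AE2-like cells under each alternative. The lower members in old mice after LPS numbered 6 with DESeq2, 9 without a filter and 6 to 10 with 1 library left out. For old against young control mice the count of 1 became 0 with DESeq2 and at 10% mitochondrial UMIs, and 0 to 1 with 1 library left out. For the interaction, 1 to 6 were called with 1 library left out, and 5 with DESeq2, which gave no adjusted p for Erap1 and Nlrc5. With 1 library left out, 6 to 8 were called in ciliated-like, 4 to 8 in club/secretory-like, 7 to 9 in dendritic-like and 3 to 7 in alveolar macrophage-like cells. With 1 library left out, the ratio differences were 1.665 to 2.086 (Psmb8 over Psmb5), 1.873 to 2.279 (Psmb9 over Psmb6) and 1.89 to 2.076 (Psmb10 over Psmb7), with exact p no smaller than 0.0571, the floor of such a split. With the replicate block, paired by lane, the ratio differences were 1.867, 2.058 and 2.006 (exact p = 0.125, the floor), and the block changed no call of a member other than those named for Psmb8 in ciliated-like and Psmb10 in alveolar macrophage-like cells. The cause of the changes was not tested. A limit of 20 cells per library could not be fitted for club/secretory-like and alveolar macrophage-like cells. Counts near 0, as for Nlrc5 in young control mice, limit what can be said of it, and 2 libraries per group limit every comparison.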
